A study of Saccharomyces cerevisiae with 71 samples.

Results

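The abundance of tRNA after tryptophan depletion was measured on 3 of the 71 microarrays of the series, in the gcn2Δ strain alone. The other 68 arrays measured tRNA charging. Members were taken by their labels: an array belongs here if its labels describe abundance, with t0 or t60 tRNA in each channel in place of total and oxidized tRNA. All 41 tRNA probes of the array are described. The strain was the prototrophic yeast WY799, in which the URA3 gene replaces GCN2 in a MATα background that also carries LEU2 and TRP1. It is isogenic to the GCN2-intact strain WY798, for which abundance was not analysed here. One abundance array carried tRNA of the reference culture in both channels. On the other 2 arrays, tRNA of cells kept for 60 min in synthetic complete medium without Trp was hybridized together with tRNA of the untreated reference, called t0, and the dyes were exchanged between the arrays. The comparison thus rests on 1 depleted and 1 reference culture. The 2 arrays repeat the labelling and hybridization of those RNAs and count as 1 replicate, so that no test of the depletion was possible and no p-value is given. The probes detect tRNA only, so the deletion of GCN2 could not be checked on these arrays.

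Each tRNA carries 1 kind of amino acid to the ribosome, and tRNAs that carry the same amino acid but differ in anticodon are called isoacceptors. RNA polymerase III transcribes their genes, most of which are present in several copies, and the mature molecules are long-lived. A cell can therefore alter the supply of aminoacyl-tRNA by changing the amount of a tRNA or by changing the fraction that is charged. Uncharged tRNA binds to and activates the kinase Gcn2p, which is missing in this strain. The question the abundance arrays address is whether the amount of tRNATrp, or of any other tRNA, differed when Trp had been removed.

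The deposited value of a probe is a linear ratio of depleted to reference tRNA. That direction is likely, from the labelled channels and from the 60 over 0 min axis the study uses for abundance. If the ratios were the inverse, the sign of every abundance change below would turn, and the sums of abundance and charging would change as given beside them. On each of the 2 arrays the median over the 41 probes is exactly 1, with 1 probe at this value on each (Gln-4 on one, Val-8 on the other). A tRNA is therefore described relative to the other tRNAs, and a rise or fall shared by all of them would not be seen. E. coli tRNALys, tRNATyr and tRNAPhe were added to the RNA as standards. Whether they entered the scaling is not given in the sources used here. On the array that carried the reference in both channels all 41 values are exactly 1, and no measure of error or of dye bias can be had from it. In what follows a pair of ratios is given with the array that had the reference in Cy3 first and the array that had it in Cy5 second. Log2 changes are the mean of both arrays ± their SD, which covers labelling and hybridization and not the spread between cultures. The probes are named as in the files, by the amino acid and a number.

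tRNATrp, the tRNA cognate to the depleted amino acid, had the lowest ratio of the 41 tRNAs on both arrays. The ratio for Trp-3, its only probe, was 0.792 and 0.832. The log2 change was -0.30 ± 0.050, which is a level 1.23-fold lower than in the reference. The next lowest values of any tRNA were -0.23 on the first array and -0.17 on the second, gaps of 0.11 and 0.091 to tRNATrp, both smaller than the pooled error of 0.14 of a difference between 2 tRNAs on 1 array. It was the only tRNA at least 1.2-fold lower on both arrays, a limit passed by 2.44% of the 41 probes. With the reference in Cy5 tRNATrp lay just past this limit. Relative to the tRNA next in order by the mean, Val-6, it was lower by a log2 difference of -0.15, where the pooled error of such a difference between 2 tRNAs was 0.099.

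The other aromatic amino acids share the chorismate pathway with Trp and remained in the medium, and their tRNAs did not lie with tRNATrp. tRNAPhe (Phe-3) was measured at 1.07 and 0.958, a log2 change of 0.016 ± 0.11. The arrays fell on opposite sides of the reference level, and the mean was 0.32 above that of tRNATrp. tRNATyr (Tyr-3) was higher than the reference on both arrays, at 1.09 and 1.14, with a log2 change of 0.15 ± 0.049. Between tRNATyr and tRNATrp the log2 difference was 0.46.

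Yeast has separate tRNAs for Met, an initiator that is delivered to the ribosome by eIF2 and an elongator that reads internal AUG codons. In the RefSeq annotation of the R64 assembly 4 genes are named IMT, for the initiator, and 5 are named EMT, for the elongator. The array holds 2 Met probes, and the files do not say which detects the initiator. Met-5 was at 1.05 and 0.911 and Met-6 at 0.960 and 1.08. The mean log2 changes of -0.030 ± 0.15 and 0.024 ± 0.12 were smaller than the SD of their arrays, and for each probe the arrays lay on opposite sides of 1. Neither tRNA was therefore distinguishable from the reference level.

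**Figure D1:**
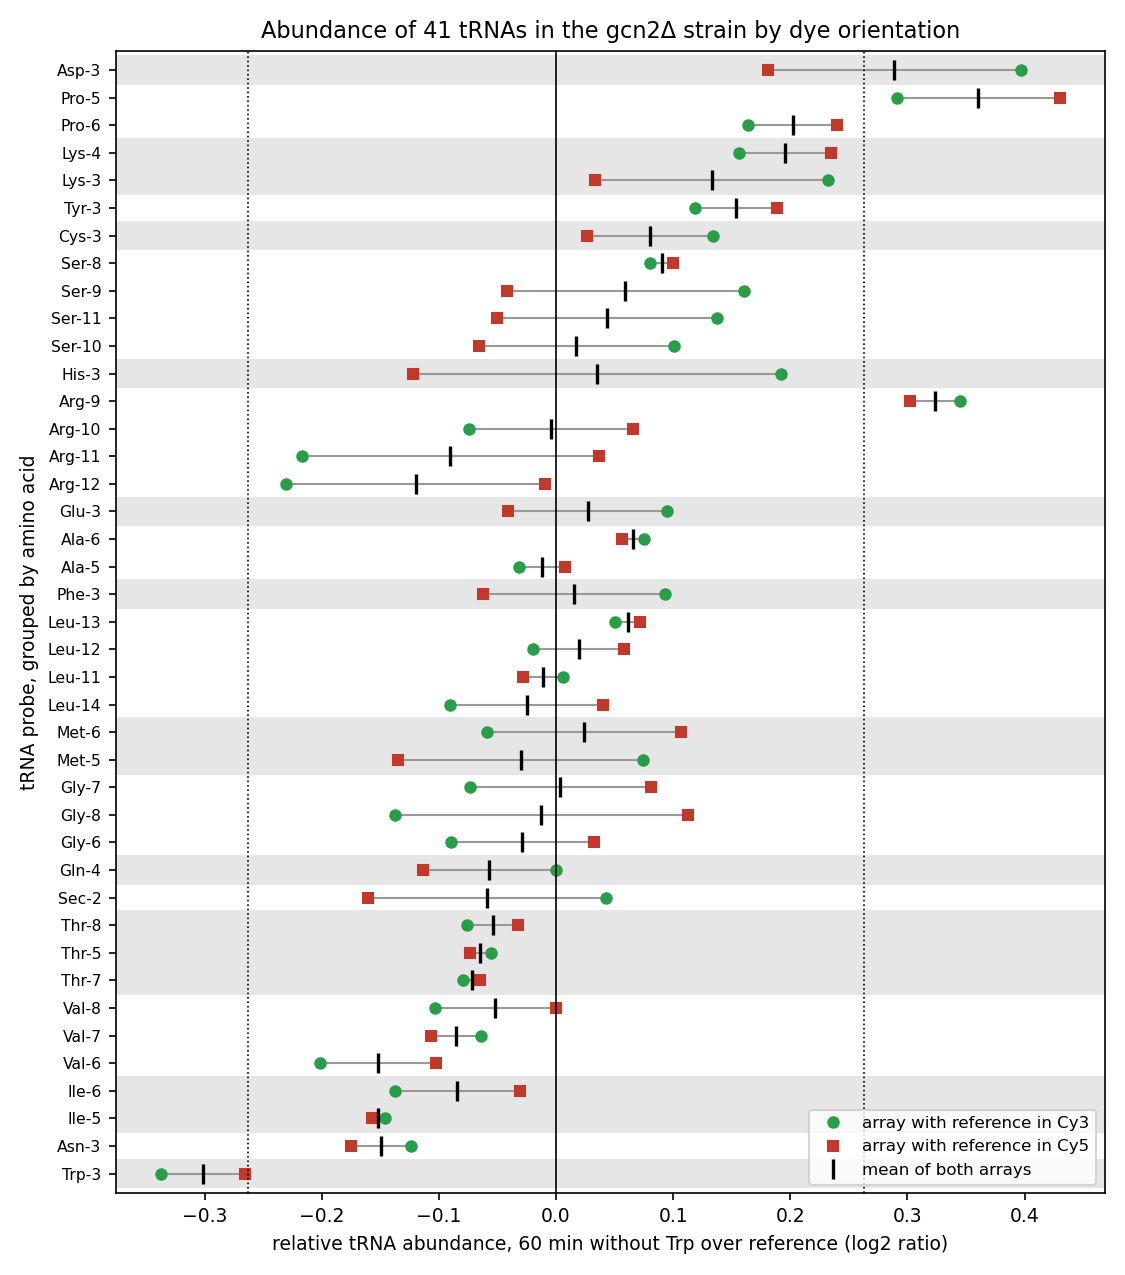
The log2 ratio of depleted to reference tRNA (horizontal axis) is plotted for each of the 41 probes (vertical axis), grouped by amino acid and ordered by the mean of the amino acid. Circles and squares are the arrays with the reference in Cy3 and in Cy5, ticks are their mean, and the dotted lines mark 1.2-fold. Trp-3 at the bottom lies past the lower line on both arrays and Pro-5 and Arg-9 lie past the upper one, while the arrays of His-3 lie on either side of 0.

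The tRNAs with the highest ratios of depleted to reference were those for Pro, 1 of the Arg isoacceptors, Asp and Lys. The ratios give a change, and do not show how abundant a tRNA is. Pro-5 was at 1.22 and 1.35 (log2 change 0.36 ± 0.098, 1.28-fold) and was the highest tRNA by the mean. Arg-9 followed at 1.27 and 1.23 (0.32 ± 0.031). These were the only tRNAs at least 1.2-fold higher on both arrays, 4.88% of the 41 probes. For Asp-3 the arrays gave 1.32 and 1.13, so that its mean of 0.29 ± 0.15 was past 1.2-fold and its second array was not. The other tRNAPro, Pro-6, was at 1.12 and 1.18 (0.20 ± 0.053). Lys-4 was at 1.11 and 1.18 (0.20 ± 0.056), and Lys-3 was at 1.17 and 1.02 (0.13 ± 0.14), close to the reference level on its second array. Both tRNAPro and both tRNALys were thus above the reference on each array. With the limit at 1.1-fold on both arrays, Ile-5 joined Trp-3 on the low side (2 of 41, 4.88%), and Asp-3, Pro-6 and Lys-4 joined Pro-5 and Arg-9 on the high side (5 of 41, 12.2%). None reached 1.5-fold on any array.

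The Arg isoacceptors did not share the level of Arg-9. Arg-10 was at 0.950 and 1.05, a log2 change of -0.004 ± 0.099. Arg-11 was at 0.860 and 1.03 (-0.090 ± 0.18) and Arg-12 at 0.852 and 0.994 (-0.12 ± 0.16). The 3 lay together on each array, below the reference on the first and near it on the second. Arg-9 was above their mean by 0.52 on the first array and 0.27 on the second, by 0.40 overall. The range of 0.44 over the Arg probes was the widest of the 11 amino acids with more than 1 probe. For the other 10 it was at most 0.16, in Pro, with a median of 0.070. That median is less than the pooled error of 0.099 of a difference between 2 tRNAs by the mean. As given below, isoacceptors of several families differed between the arrays in the same way. Their errors may therefore not be independent, and a narrow range does not by itself show a like level.

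Next to tRNATrp at the lower end of the range by the mean were a tRNA each for Val, Ile and Asn, followed by Arg-12 and Arg-11. Val-6 was at 0.870 and 0.932 (log2 change -0.15 ± 0.070), Ile-5 at 0.904 and 0.897 (-0.15 ± 0.0076) and Asn-3 at 0.918 and 0.886 (-0.15 ± 0.036). These 3 were each about 1.1-fold lower, and the arrays of Ile-5 were the closest of all probes. The second tRNAIle, Ile-6, was at 0.909 and 0.979, and Val-7 was at 0.957 and 0.929. The remaining tRNAVal, Val-8, was at 0.931 and, as the median probe of the second array, at exactly 1. The 3 tRNAThr lay within a log2 range of 0.018 of each other, the narrowest of any amino acid. Thr-5 was at 0.962 and 0.950, Thr-7 at 0.946 and 0.956 and Thr-8 at 0.949 and 0.978. By the mean of both arrays, all probes of Ile, Val and Thr were below the reference and all probes of Lys, Pro and Ser above it, 6 of the 11 amino acids with more than 1 probe. Over all 41 probes, 51.2% were below the reference by the mean and 48.8% were above it. Whether 6 is more than these shares alone would give was not tested, nor was a cause.

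The tRNAs for Leu, Gly, Ala and Ser lay near the reference level. The 4 tRNALeu were at 1.00 and 0.980 (Leu-11), 0.987 and 1.04 (Leu-12), 1.04 and 1.05 (Leu-13) and 0.939 and 1.03 (Leu-14). Their mean log2 change was 0.011 ± 0.034. For tRNAAla the ratios were 0.978 and 1.01 (Ala-5) and 1.05 and 1.04 (Ala-6). In several families isoacceptors differed between the arrays in the same way, among them Arg-10, Arg-11 and Arg-12 and both tRNAPro above. All 3 tRNAGly were lower with the reference in Cy3 and higher with it in Cy5, at 0.940 and 1.02 (Gly-6), 0.950 and 1.06 (Gly-7) and 0.909 and 1.08 (Gly-8). The tRNASer ran the other way in 3 of 4 probes, with log2 ratios of 0.16 and -0.042 (Ser-9), 0.10 and -0.066 (Ser-10) and 0.14 and -0.050 (Ser-11). For Ser-8 the ratios were 1.06 and 1.07. For tRNASer the mean over the probes was 0.053 ± 0.095, and all of its probes being above the reference by the mean rests on the first array.

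Among the amino acids read by 1 probe, Cys-3 was at 1.097 and 1.02 and was higher on both arrays. Glu-3 was at 1.07 and 0.972, and Gln-4 was at exactly 1, as the median probe of the first array, and at 0.924. His-3 had the widest gap between the arrays of all probes, 1.14 against 0.919, and its log2 change of 0.035 ± 0.22 says little about the level of tRNAHis. Arg-11 and Gly-8 had the next widest gaps. A probe named Sec-2 was at 1.03 and 0.895. Yeast is not known to have a selenocysteine tRNA, the files do not say what this probe detects, and it is left out of the lists by amino acid below.

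Over all 41 tRNAs, 10 were lower than the reference on both arrays (24.4%), 11 were higher on both (26.8%), 18 fell on opposite sides and 2 were at exactly 1 on an array. Among the 20 tRNAs that were not on the same side, the largest mean was 0.090 in size. The pooled SD of a single array was 0.099 on the log2 scale, and the error of a mean of 2 arrays was 0.070. Beyond 2 such errors, a log2 change of 0.14, lay 4 tRNAs on the low side (Trp-3, Val-6, Ile-5 and Asn-3) and 6 on the high side (Pro-5, Arg-9, Asp-3, Pro-6, Lys-4 and Tyr-3). The other 31 were within 2 such errors. Their means, and those of no other tRNAs, were within 1.1-fold of the reference.

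**Figure D2:**
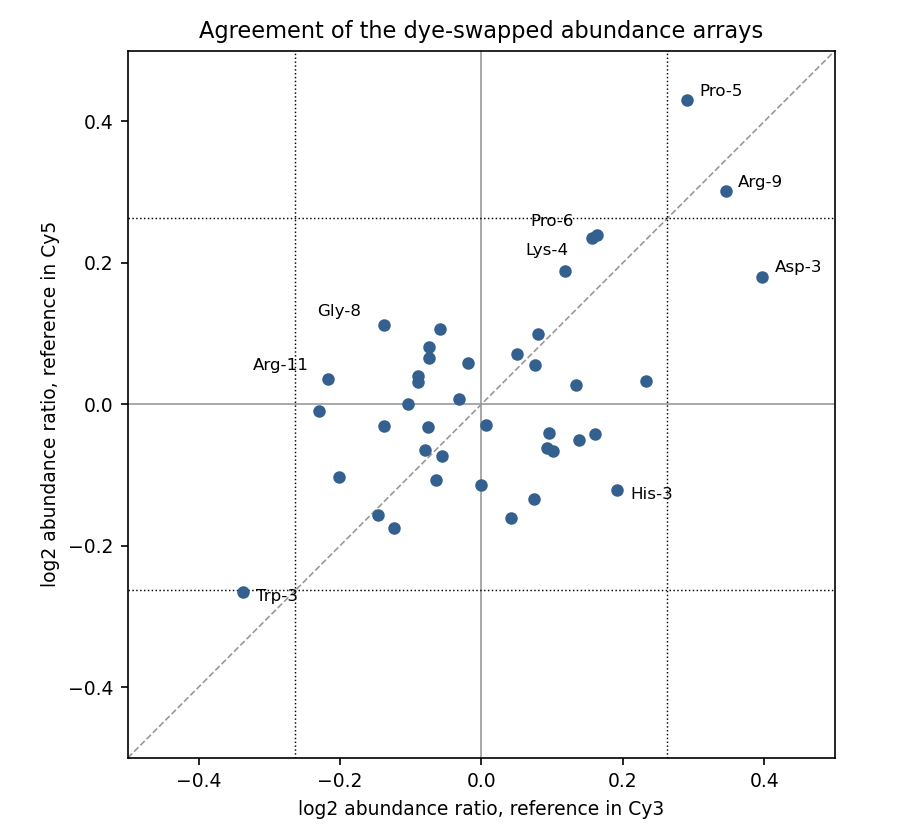
Each point is 1 of the 41 tRNAs, with its log2 abundance ratio on the array with the reference in Cy3 (horizontal axis) and in Cy5 (vertical axis). Dotted lines mark 1.2-fold and the dashed line marks equal values. Trp-3, Pro-5 and Arg-9 lie in the outer corners, and the points nearer the centre scatter over all 4 quadrants.

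Across probes, the Pearson correlation between the arrays was 0.55 and the Spearman correlation 0.35. These are descriptions over 41 probes that share both arrays. Without Trp-3 the Pearson correlation was 0.49. Without the 4 tRNAs whose mean lay past 1.2-fold (Trp-3, Pro-5, Arg-9 and Asp-3) it was 0.21 over 37 probes.

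Grouped by the side chain of their amino acid, the tRNAs for hydrophobic residues were lower by the mean in 9 of 13 probes, against 51.2% of all 41 probes. Their median log2 change was -0.030, beside -0.004 over all probes. The 5 of these 13 that were lower on both arrays were Trp-3, Val-6, Val-7, Ile-5 and Ile-6, and Leu-13 was higher on both. Of the 8 tRNAs for charged residues (Arg, Asp, Glu and Lys), 5 were higher by the mean, against 48.8% of all probes, with a median of 0.080. Of the 8 for small residues (Ala, Cys, Gly and Pro), 5 were also higher, with a median of 0.035, and all 8 were above the reference with the reference in Cy5 but 4 of 8 with it in Cy3. For the 11 tRNAs of polar residues the median was 0.017, from 0.080 on the first array and -0.064 on the second.

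Aminoacyl-tRNA synthetases fall into 2 structural classes. The 20 tRNAs of class I enzymes, tRNATrp among them, had a median of -0.028 and 13 were lower by the mean, while 7 of the 20 tRNAs of class II enzymes were, with a median of 0.026. Over all probes 51.2% were lower by the mean. The medians of class I and class II were -0.061 and 0.087 on the first array, but -0.0046 and 0.020 on the second. Below the reference were 12 tRNAs of class I and 8 of class II on the first array, and 10 and 9 on the second. The 8 tRNALeu and tRNASer, which carry a long variable arm, had a median of 0.032, and 0 of 8 were lower on both arrays, against 24.4% of all probes. Their median was 0.065 on the first array, with 6 of 8 above the reference. On the second array it was 0.0058, with 4 of 8 above.

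Abundance was then set beside charging in the same strain after 60 min without Trp, measured on a separate dye-swapped pair of arrays. On that pair the array with total tRNA in Cy5 runs opposite to its partner as deposited and was turned, which makes its direction likely but not settled. Charging of tRNATrp changed by -3.82 and -3.85 on the log2 scale, 14.3-fold lower, against 1.23-fold lower abundance. Both changes added, the amount of charged tRNATrp was at a log2 change of -4.13, or 17.6-fold lower, relative to the other tRNAs. This sum takes both measurements to come from like cultures, which the labels do not state. Most of it came from charging. With the abundance ratios taken as the inverse, the sum would be -3.53, or 11.6-fold lower.

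The 3 tRNAs with the largest decrease in charging lay at opposite ends and in the middle of the range of abundance changes. Pro-5 had a charging change of -1.49 and -2.07 and the highest mean abundance ratio of the 41 tRNAs. Its charged amount, from both changes, was 2.67-fold lower, compared with 3.43-fold lower charging, and would be 4.41-fold lower with abundance as the inverse. Met-6, at -1.84 and -1.53 in charging, was 26th of 41 from the lowest in mean abundance ratio. Its charged amount was 3.17-fold lower, beside 3.22-fold lower charging, and would be 3.28-fold lower with abundance as the inverse. Lys-4 and Tyr-3 were higher in abundance on both arrays and lower in charging by the mean, at -0.55 and -0.36. For Tyr-3 the charging arrays differed, with -0.70 on one and -0.013 on the other. Ala-5 and Gly-7 were lower in charging by the mean as well, at -0.78 and -0.55, although for Ala-5 the arrays gave -0.19 and -1.38. Their abundance was 0.991 and 1.00 of the reference by the mean.

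**Figure D3:**
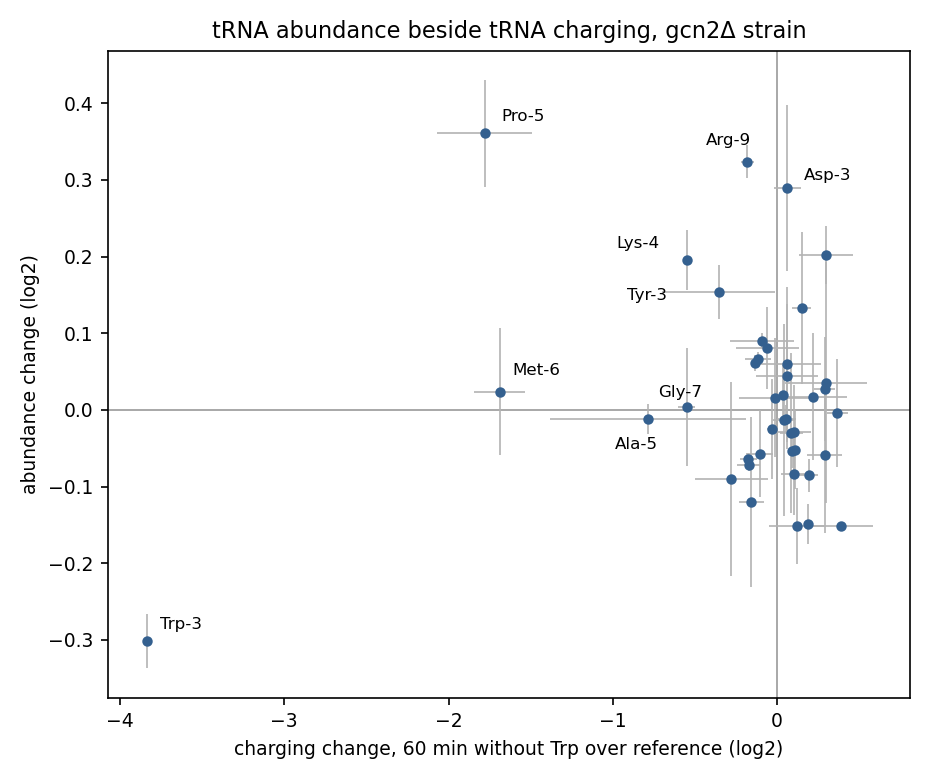
The log2 abundance change of each of the 41 tRNAs (vertical axis) is plotted against its log2 charging change (horizontal axis) in the gcn2Δ strain, both after 60 min without Trp. Points are means of the dye-swapped arrays, bars reach from one array to the other, and the axes differ in scale. Trp-3 is lowest on both axes, and Pro-5 and Met-6 are low in charging alone.

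Across the 41 probes, abundance and charging had a Pearson correlation of 0.097 and a Spearman correlation of -0.16. The probes of each measure share their arrays, and the value is a description. It rested on tRNATrp: without Trp-3 the Pearson correlation was -0.37 over 40 probes, and without Trp-3, Pro-5 and Met-6, the 3 with the largest decrease in charging, it was -0.19. Abundance varied less than charging. The SD over the 41 tRNAs of the mean log2 change was 0.13 for abundance and 0.74 for charging, a 5.66-fold difference that was 3.75-fold without Trp-3. By the mean, 4 tRNAs were past 1.5-fold lower in charging (Trp-3, Pro-5, Met-6 and Ala-5), and 0 of 41 were past 1.5-fold in abundance in either direction.

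The difference between the abundance arrays was also smaller than that between partner charging arrays of the series. Taken over the probes, the difference between partner arrays had an SD of 0.14 for abundance, and the same SD was between 0.16 and 0.80 in the 20 dye-swapped charging pairs of depleted cultures, with a median of 0.32. The lowest value stayed at 0.16 if the array with total tRNA in Cy5 of any charging pair was taken the other way round. The spread of the pair mean was not equally set apart: 3 of the 20 charging pairs had a smaller SD over probes than the 0.13 of the abundance pair. These pairs differ in what was labelled, since both channels of an abundance array hold unoxidized tRNA.

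**Figure D4:**
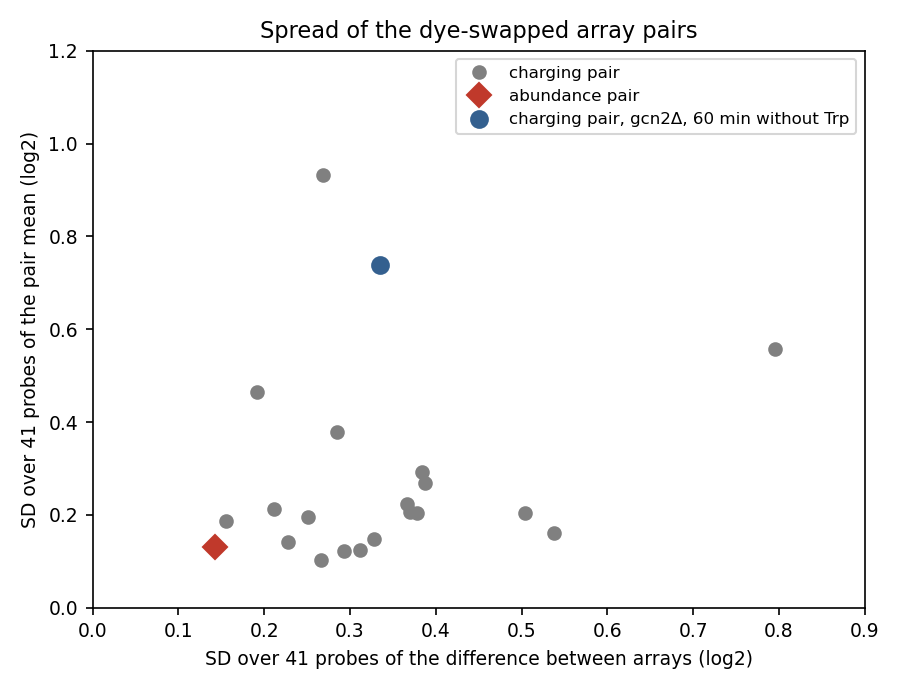
For each dye-swapped pair of arrays, the SD over the 41 probes of the pair mean (vertical axis, log2) is plotted against the SD of the difference between its arrays (horizontal axis, log2). The abundance pair (diamond) lies furthest to the left, at 0.14 on the horizontal axis and 0.13 on the vertical, and the charging pair of the same strain and time point at 0.33 and 0.74.

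The tRNAs at the ends of the range of abundance changes differed in how variable their charging was. Over the arrays with total tRNA in Cy3 of the 25 other depleted samples, the SD of the log2 charging ratio was 0.48 for Pro-5, 0.72 for Arg-9, 0.58 for Asp-3 and 0.33 for Trp-3. These samples pool both strains and all media, and time points of the same depletion are counted separately. The SD was 0.17 for Val-6 and 0.18 for Ile-5, below the median of 0.24 over the 41 probes. For Asn-3, whose abundance change was nearly the same as theirs, it was 0.33, above the median. A high SD was not limited to the ends of the range, since Arg-10, near the middle in abundance, had 0.73. The samples include those depleted of Arg, in which Arg-9 and Arg-10 are cognate, and others depleted of Trp, in which Trp-3 is. Variation of this kind between strains, media and times was measured for charging alone, and abundance has no second depleted culture to set beside it.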

How the data were processed

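tRNA was measured on 2-colour microarrays. The authors labelled tRNA with Cy3 or Cy5 by ligation to its 3′ end and deposited linear ratio values, already scaled, for 41 probes on 71 arrays. Neither the scanner nor its software, nor how background was treated, is given in the sources used here. The depth of an array is not defined, and the number of arrays limits the precision. No value was missing, and 0 columns belonged to no sample.

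The ratios were put on a log2 scale, with no pseudocount or further centring, and the 2 dye-swapped abundance arrays were averaged with Python 3.11.15, NumPy 2.4.6 and pandas 2.3.3. A pooled SD was computed from the differences between the arrays over all probes. A tRNA was called past a limit if it was at least 1.2-fold lower or higher on both arrays. Amino acid lists were taken from textbook groupings. Members, lists and limits were chosen with earlier results of these data known. Named in full were tRNATrp, tRNAPhe, tRNATyr, the Met probes, the 5 lowest and 5 highest tRNAs, the 3 with the widest gap between arrays and those past 1.2-fold. Tables of RefSeq genes were used for gene names only, and no sequence is given. The averaging and counting were tested on simulated data with changes larger than any seen here. That check does not show how well changes near 1.2-fold are called. Alternatives were the centring, each array alone, the averaging, the fold and the direction of an array.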

Additional observations from a re-analysis of the deposited data

How the results depend on the processing

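With 1 culture in each group and technical repeats only, no setting could change a test. No paired analysis was possible because each group holds 1 culture and no test was made. Both abundance arrays have a median of exactly 1 as deposited, so that centring on the median is the same values and tests nothing. The arithmetic mean of the ratios moved no result beyond the spread of its arrays. With the reference in Cy3 alone, the SD over tRNAs was 0.16 in place of 0.13, and the median of the charged list minus that of the hydrophobic list was 0.19 in place of 0.11. With the reference in Cy5 alone, the SD was 0.14 and the difference between the lists 0.082. The number of tRNAs past the limit on both arrays was 3 at 1.2-fold (0.26 on the log2 scale) and 7 at 1.1-fold. At the next limit tried above 1.2-fold, 0.32 on the log2 scale, all 3 calls were lost, since Trp-3 was at 0.832, Pro-5 at 1.22 and Arg-9 at 1.23 on one array, and 0 were past 1.5-fold. If the array with the reference in Cy5 were turned, tRNATrp would be at -0.036 and Pro-5 at -0.069, and 0 tRNAs would be past 1.2-fold. The SD over tRNAs would then be 0.071, the difference between the charged and hydrophobic lists 0.027, and 2 amino acids in place of 6 would have all probes on 1 side. The correlation between the abundance arrays was 0.55 by Pearson, 0.35 by Spearman and 0.21 without the 4 tRNAs past 1.2-fold by the mean. The correlation of abundance with charging was 0.097, -0.37 without the Trp probe, -0.064 with the charging array with total tRNA in Cy5 as deposited and -0.19 without the 3 tRNAs lowest in charging. Leaving out the 4 and the 3 tRNAs were choices made after seeing the data. The cause of these differences was not tested.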
